A study of Mus musculus with 18 samples.

Results

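The proteasome is the large protease that degrades proteins tagged with ubiquitin in the cytosol and nucleus. The genes described here are the protein-coding mouse genes whose symbol begins with *Psm*, followed by a letter from a to g and a digit. The rule found 50 of the 51912 genes in the count table, and 49 of them encode subunits, activators, inhibitors or assembly factors of the proteasome. The other, *Psmc3ip*, encodes a meiotic recombination factor that only shares the symbol's stem, and it is counted apart. The 49 genes were grouped by role into 7 genes of the α ring, 7 of the constitutive β ring, 3 of the immunoproteasome, 2 of tissue-restricted subunits, 6 ATPases and 3 other subunits of the 19S base, 8 subunits of the 19S lid, 6 activators and inhibitors, and 7 assembly factors.

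As background, the 20S core is a barrel made of stacked rings. The α rings gate its ends, and the β rings carry the proteolytic sites inside. The 19S regulatory particle binds ubiquitinated proteins, removes the ubiquitin, unfolds the chain with its ATPase ring and feeds it into the core. Interferon induces alternative catalytic subunits that form the immunoproteasome, which makes peptides for presentation on class I major histocompatibility molecules, and in brain it is known from reactive glia as well as from microglia. Other caps, encoded by the *Psme* genes, open the core without ubiquitin, and dedicated chaperones assemble the rings and the base.

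The cells were primary cortical astrocyte cultures from postnatal day 0 pups of a transgenic mouse line, Aldh1l1-EGFP/Rpl10a, in which the *Aldh1l1* promoter drives a green fluorescent ribosomal protein in astrocytes. Cortices of male and female pups were pooled. After 14 days the cells were replated, grown for 6 days, held without serum for 24 h, and then kept for another 24 h in serum-free medium with 50 mM ethanol or without it. Tagged ribosomes were pulled down with antibodies to the fluorescent tag (translating ribosome affinity purification, the IP fraction), while the input fraction was total RNA of the same lysate. All 4 groups carried the transgene: control IP and ethanol IP with 6 dishes each, and control input and ethanol input with 3 dishes each. The input libraries carry the numbers 4 to 6 and come from the dishes of the IP libraries with the same treatment and number. The pull-down enriches for cells in which the *Aldh1l1* promoter is active, though markers of other cells were still detected in IP, and the input holds every cell of the mixed culture.

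Each of the 18 libraries held between 74239854 and 132810705 read pairs on genes, with a median of 84119135. Levels are given as CPM, counts scaled to a common library size, with library sizes adjusted by the trimmed mean of M-values (TMM). Astrocyte markers were present in all groups: the summed level of 10 markers had a median of 1849 CPM in control IP and 1210 CPM in control input, and *Aldh1l1* itself was higher in IP than in input by 1.05 ± 0.02 log2 units (SE, adjusted p = 5.5e-51). Of 9 microglial markers measured, 8 were lower in IP and 1 did not pass, with a median log2 fold change of -2.44. Of 6 fibroblast and meningeal markers 5 were lower in IP and 1, *Col1a2*, was higher. Over all genes tested, 25.8% were lower in IP than in input and 25.2% were higher. Among the microglial markers *C1qb* was at 3.58 to 4.36 CPM and *Csf1r* at 3.44 to 4.17 CPM in control IP, and at 16.5 to 18.5 CPM and 22.2 to 23.6 CPM in control input, while *P2ry12* averaged below 0.1 CPM. *Itgam* was not analysed here. In such bulk samples, fewer cells of a type and less RNA per cell cannot be told apart.

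Of the 49 proteasome genes 46 averaged 1 CPM or more, and *Psma8*, *Psmb11* and *Psme2b* did not. All 49 reached 10 read pairs, summed over libraries, and were tested. Levels were compared between genes only per kilobase of exonic length. In control IP the order was led by *Psma6*, a subunit of the α ring, at 139.7 ± 3.1 CPM per kb (SD, n = 6). The 19S ATPase *Psmc3* followed at 106.2 ± 2.3 CPM per kb, and *Psmc5* and *Psmc1*, 2 further ATPases, were at 97.0 ± 2.5 and 93.1 ± 1.8 CPM per kb. The neighbours *Psmc5* and *Psmc1* lay within the sum of their SDs of each other. *Psma6* also led in the other 3 groups, at 123.6 CPM per kb in ethanol IP, 137.2 in control input and 126.7 in ethanol input. With the length of the longest coding transcript in place of all exonic bases, *Psmb6* led in control IP at 188.2 CPM per kb while *Psma6* stood at 165.4, so the order near the top depended on the length used.

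Subunits that sit once in each ring were not equally abundant as RNA. Within the α ring, levels in control IP ran from 23.8 CPM per kb for *Psma1* to 139.7 for *Psma6*, a 5.87-fold range (per coding kb 4.06-fold, from *Psma3* to *Psma6*). Within the constitutive β ring, *Psmb7* was lowest at 17.1 CPM per kb and *Psmb2* highest at 84.5, a 4.95-fold range (per coding kb 3.73-fold, from *Psmb7* to *Psmb6*). The 6 ATPases of the base spanned 4.27-fold, from *Psmc6* at 24.9 to *Psmc3* at 106.2 CPM per kb. The assembly factors were among the less abundant genes, from 1.80 CPM per kb for *Psmg3* to 26.4 for *Psmd10*, a 14.7-fold range (per coding kb 5.89 to 27.2, 4.61-fold). *Psme4*, which encodes the large cap PA200, stood at 5.98 CPM per kb beside 89.0 for *Psme1* and 83.0 for *Psme2*, the genes of the interferon-inducible cap PA28.

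The catalytic genes come as pairs of a constitutive subunit and the immunoproteasome subunit that takes its place. *Psmb8* replaces *Psmb5* at the chymotrypsin-like site, and its level per kb was 0.303 ± 0.016 times that of *Psmb5* in control IP (SD, n = 6). *Psmb9* replaces *Psmb6* at the caspase-like site and stood at 0.115 ± 0.003 times its level. *Psmb10* replaces *Psmb7* at the trypsin-like site and was the more abundant of the pair, at 4.21 ± 0.29 times. Per coding kb the ratios were 0.630, 0.132 and 1.85, so the order within each pair did not depend on the length used. In control input the ratios were 0.289, 0.102 and 3.61 per kb (0.599, 0.117 and 1.59 per coding kb). Among the 3 immunoproteasome genes *Psmb10* stood at 71.8 CPM per kb in control IP, *Psmb8* at 18.6 and *Psmb9* at 9.21, a 7.79-fold range that came to 3.74-fold per coding kb. With a gene on the opposite strand *Psmb8* shares 14.7% of its exonic bases, *Psmb9* 5.79% (*Tap1*) and *Psmb7* 11.8%, and the counts disregard strand. *Psmb5* shares 12.1% with a microRNA gene on its own strand.

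Tissue-restricted subunits were barely detected. *Psma8*, the testis form of an α subunit, had between 2 and 12 read pairs per library. *Psmb11*, the catalytic subunit of the thymus, had 19 read pairs over the 6 control IP libraries and 2 over the 6 ethanol IP libraries, a ratio of 0.0920 per read pair on genes (95% exact interval 0.0104 to 0.381, which covers counting error only). Of the 19 read pairs 8 came from 1 library, IP control 6. In the test described next *Psmb11* passed in IP (log2 fold change -2.99 ± 1.03, adjusted p = 0.028), and it no longer did without IP control 1 or 6 or IP ethanol 1, 2, 4 or 5, with adjusted p between 0.050 and 0.12.

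To ask what ethanol did to RNA on astrocyte ribosomes, ethanol and control IP were compared (6 vs. 6 libraries, edgeR quasi-likelihood test over 24495 genes, Benjamini-Hochberg adjusted p below 0.05). Such p-values measure spread between dishes. Of the 49 proteasome genes 26 were lower with ethanol and 2 were higher, *Psme4* and *Psmf1*, while 21 did not pass. Over all genes tested 9.48% were lower and 11.9% higher. Here and below, such shares include genes with few read pairs. Among the 13842 genes above 1 CPM in at least 3 libraries, 19.9% were lower and 19.1% higher. Of the 46 proteasome genes among them, 29 were lower and 2 higher. The median log2 fold change of the 49 genes was -0.08, beside 0.01 over all genes, and the log2 fold change was negative in 45 of them. The effects were small, between -0.20 and 0.23 among called genes averaging 1 CPM or more, and 9 of the 49 had control and ethanol libraries that did not overlap (9.96% over all genes). Summed over the 49 genes, control IP libraries lay between 5038 and 5247 CPM (median 5217) and ethanol IP libraries between 4654 and 5001 CPM (median 4895). The highest ethanol library was thus below the lowest control library.

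In the 20S core nearly every constitutive gene fell in IP. Of 14 genes 13 were lower, 6 of 7 in the α ring and 7 of 7 in the β ring, with *Psma4* the exception (log2 fold change -0.07 ± 0.03, adjusted p = 0.066, and 0.038 in DESeq2). The median log2 fold change was -0.09 in the α ring and -0.14 in the β ring. *Psmb5*, the chymotrypsin-like subunit, had a lowest, median and highest level of 53.3, 55.3 and 57.1 CPM in control IP and 43.4, 48.6 and 50.5 CPM in ethanol IP. The groups did not overlap, and *Psmb5* fell by 0.20 ± 0.03 log2 units (SE, adjusted p = 5.9e-07), or 13.2%. *Psmb6*, the caspase-like subunit, went from 144.9, 149.6 and 155.8 CPM in control IP to 125.9, 131.3 and 141.8 CPM in ethanol IP. These groups did not overlap either, and the log2 fold change was -0.18 ± 0.03 (adjusted p = 2.7e-07). *Psmb7*, the trypsin-like subunit, had 55.2, 58.4 and 61.5 CPM in control IP and 52.4, 54.7 and 55.7 CPM in ethanol IP, which overlap at the edge (-0.10 ± 0.03, adjusted p = 0.010). In the α ring *Psma6* fell by 0.17 ± 0.02 log2 units (adjusted p = 1.3e-07) and *Psma2* by 0.13 ± 0.02 (adjusted p = 4.6e-05), both without overlap of the groups.

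Of the 3 immunoproteasome genes only *Psmb10* passed in IP, and differences between the 3 were not tested. *Psmb10* had 110.3, 124.8 and 130.8 CPM as lowest, median and highest level in control IP and 96.5, 107.8 and 111.1 CPM in ethanol IP. Only the highest ethanol library reached into the control range, and the log2 fold change was -0.20 ± 0.04 (adjusted p = 0.00094). *Psmb8* went from 58.0, 64.2 and 67.6 CPM to 53.9, 61.6 and 65.0 CPM, with wide overlap (-0.05 ± 0.04, adjusted p = 0.52). *Psmb9*, its neighbour on chromosome 17 at a gap of 9.957 kb, went from 31.6, 34.0 and 35.2 CPM to 32.0, 33.2 and 37.8 CPM, again with wide overlap (0.02 ± 0.04, adjusted p = 0.73). Since *Psmb5* fell, the level of *Psmb8* per level of *Psmb5* was 0.339 ± 0.023 in ethanol IP beside 0.303 ± 0.016 in control IP (SD, n = 6 each). For *Psmb9* to *Psmb6* the ratio was 0.132 ± 0.011 beside 0.115 ± 0.003, and for *Psmb10* to *Psmb7* it was 3.92 ± 0.15 beside 4.21 ± 0.29. These ratios are descriptions and were not tested.

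**Figure D1:**
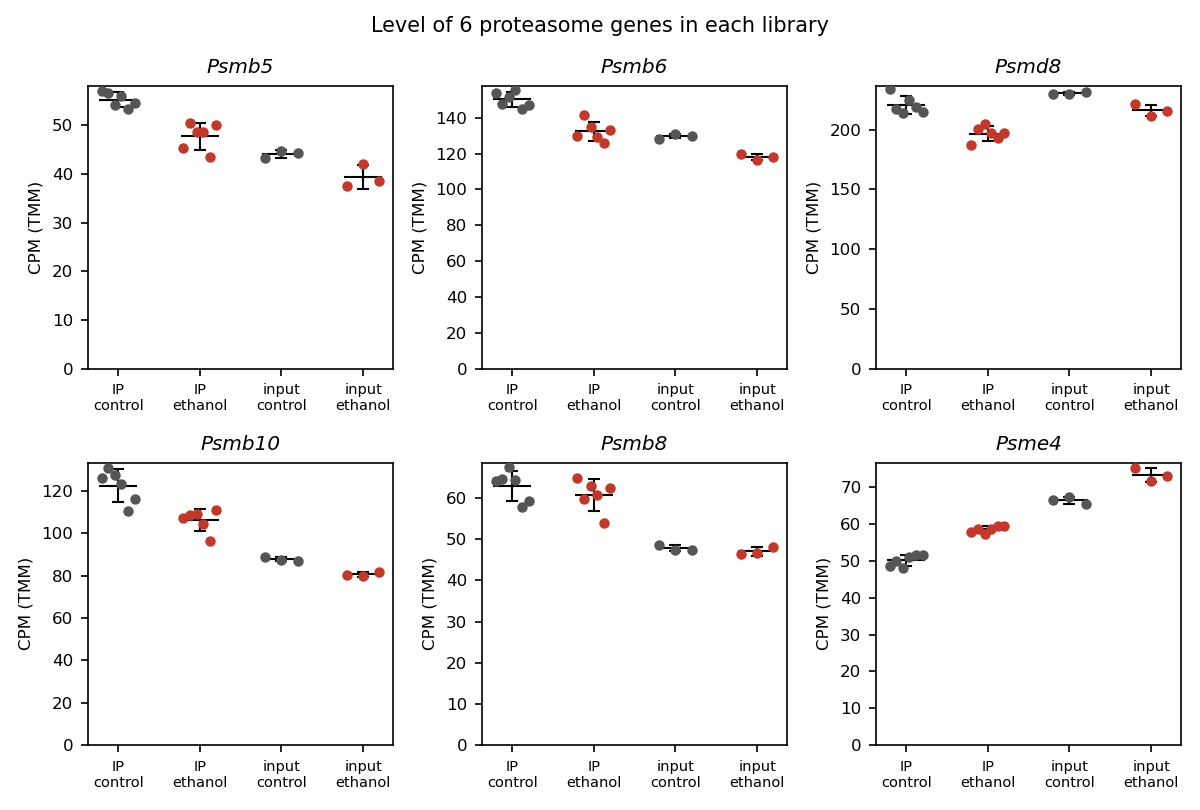
Level in each of the 18 libraries (CPM, TMM scaled, axis from 0) of *Psmb5*, *Psmb6*, *Psmd8*, *Psmb10*, *Psmb8* and *Psme4*, with points for libraries, a line for the mean and bars for the SD. *Psme4* is higher with ethanol in both fractions without overlap (48.1 to 51.7 CPM in control IP, 57.3 to 59.5 CPM in ethanol IP), while *Psmb8* overlaps between treatments in both.

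In the 19S regulatory particle 8 of 17 genes were lower in IP and 9 did not pass. Among the ATPases that unfold substrates 4 of 6 were lower. Of these, *Psmc1* and *Psmc5* both lost the call without IP control 3 or IP ethanol 4 or 5. *Psmc4* showed the largest decrease of the base. Its lowest, median and highest level was 124.8, 130.2 and 133.1 CPM in control IP and 110.9, 113.5 and 120.9 CPM in ethanol IP. These ranges are apart, and *Psmc4* fell by 0.16 ± 0.03 log2 units (adjusted p = 1.3e-06). None of the 3 other base subunits passed in edgeR, and none did with an unadjusted p below 0.05 or in DESeq2. *Psmd2*, the scaffold that docks ubiquitin shuttle factors, stood at 319.8, 323.6 and 325.8 CPM in control IP and 313.3, 319.2 and 323.9 CPM in ethanol IP (-0.01 ± 0.02, adjusted p = 0.81). *Psmd4*, a ubiquitin receptor, gave -0.01 ± 0.03 (adjusted p = 0.76). In the lid 4 of 8 were lower. *Psmd8*, a lid subunit, had 214.1, 218.1 and 234.1 CPM in control IP and 187.4, 197.0 and 204.7 CPM in ethanol IP. Every ethanol library was below every control library (-0.16 ± 0.02, adjusted p = 9.1e-07). *Psmd14*, the deubiquitinase of the lid, had 74.6, 78.1 and 79.5 CPM in control IP and 69.4, 71.1 and 74.7 CPM in ethanol IP. Its groups overlapped by a narrow margin, and it fell by 0.12 ± 0.03 log2 units (adjusted p = 0.00047).

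Activators and the inhibitor went in both directions. *Psme4*, whose product PA200 is known for caps that degrade acetylated histones in the nucleus, had 48.1, 50.4 and 51.7 CPM as lowest, median and highest level in control IP and 57.3, 58.7 and 59.5 CPM in ethanol IP. It rose by 0.23 ± 0.03 log2 units (adjusted p = 1.6e-09), or 17.4%, the largest increase of the 49 genes. *Psmf1*, which encodes the proteasome inhibitor PI31, went from 72.8, 75.5 and 76.8 CPM to 76.6, 79.9 and 82.1 CPM. Its groups touched, and the log2 fold change was 0.09 ± 0.03 (adjusted p = 0.0050). *Psme1* and *Psme2*, neighbours on chromosome 14 at a gap of 5.912 kb whose products form 1 cap, both fell. *Psme1* went from 183.0, 198.3 and 205.8 CPM to 155.99, 178.0 and 183.6 CPM (-0.16 ± 0.03, adjusted p = 0.0013). *Psme2* went from 134.7, 150.8 and 153.6 CPM to 121.3, 130.1 and 142.5 CPM (-0.15 ± 0.04, adjusted p = 0.0095). In both, the ethanol range reached into the control range. *Psme3*, which encodes the nuclear cap PA28γ, changed by -0.08 ± 0.03 (adjusted p = 0.020). *Psme2b*, a near copy of *Psme2* whose read pairs cannot always be placed, was near 0.7 CPM in both groups and did not pass (adjusted p = 0.86).

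None of the 7 assembly factors passed in IP in edgeR, none had an unadjusted p below 0.05, and none passed in DESeq2. *Psmg1* and *Psmg2*, which guide the α ring, gave log2 fold changes of -0.04 ± 0.04 (adjusted p = 0.61) and -0.05 ± 0.03 (adjusted p = 0.37). *Psmg3* and *Psmg4*, the other α ring chaperones, gave -0.12 ± 0.06 (adjusted p = 0.21) and -0.07 ± 0.05 (adjusted p = 0.34). The chaperones of the base, *Psmd5*, *Psmd9* and *Psmd10*, lay between -0.05 and -0.01 with adjusted p of at least 0.40. *Psmc3ip*, outside the proteasome, fell by 0.21 ± 0.06 log2 units (adjusted p = 0.012) and lost the call with trends in base composition and length removed (-0.15, adjusted p = 0.076).

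**Figure D2:**
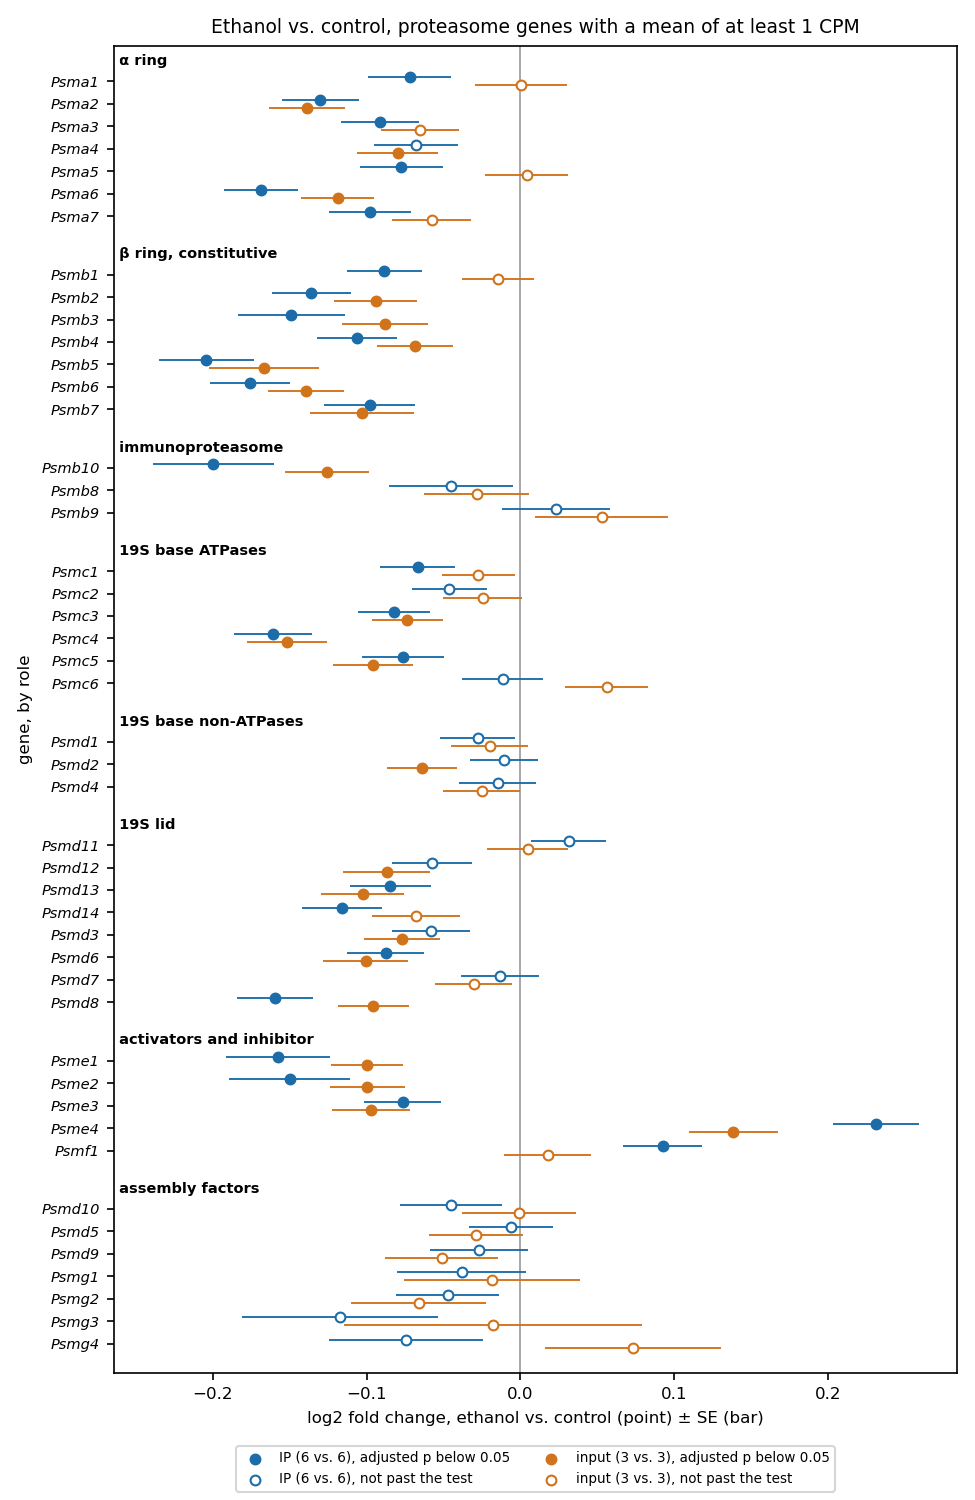
Log2 fold change of ethanol vs. control (x axis, points, bars for the SE) for the 46 proteasome genes averaging 1 CPM or more, by role, in IP (6 vs. 6, blue) and input (3 vs. 3, orange). Filled points passed the test: 27 genes in IP and 23 in input, most of them to the left of 0, with *Psme4* farthest to the right.

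When the test asked for changes beyond 1.2-fold, 0 of the 49 genes passed in IP (edgeR, 0.388% over all genes), and 1 had an unadjusted p below 0.05. DESeq2 was not used for it. 5 of the IP calls depended on single libraries: besides *Psmb11*, *Psma1* lost its call without IP control 3, 4, 5 or 6 or IP ethanol 4, 5 or 6 (adjusted p up to 0.11), *Psma5* without IP control 2 or 3 or IP ethanol 4 or 5 (up to 0.10), *Psmc1* without IP control 1, 2 or 3 or IP ethanol 4, 5 or 6 (up to 0.12), and *Psmc5* without IP control 3 or IP ethanol 4 or 5 (up to 0.13). *Psma4* joined the called genes without IP control 1, 5 or 6 or IP ethanol 1, 2 or 3 (adjusted p from 0.012), *Psmc2* (0.046), *Psmd12* (0.021) and *Psmd3* (0.021) without IP ethanol 3. *Psmd12* and *Psmd3* were also called lower in DESeq2 (adjusted p = 0.032 and 0.048). With trends in base composition and length removed, the median log2 fold change of the 49 genes was -0.05, 20 genes were lower, and *Psma1*, *Psma5*, *Psmb4*, *Psmc1*, *Psmc5*, *Psmd6* and *Psme2* lost their call, with log2 fold changes from -0.08 (*Psme2*) to -0.00 (*Psma1*), while *Psmd3* gained one (adjusted p = 0.0030). In the IP libraries 1 to 3 alone 13 genes were lower, and in libraries 4 to 6 alone 24 were, where *Psmf1* gave an adjusted p of 0.24, *Psmb4* of 0.24 and *Psmb7* of 0.10.

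1 ethanol dish was lowest in most genes. IP ethanol 5 was the lowest of the 6 ethanol IP libraries in 31 of the 46 genes averaging 1 CPM or more, and input ethanol 5, from the same dish, was the lowest of the 3 ethanol input libraries in 31 of 46. Among controls, IP control 5 was the lowest of 6 in 21 of 46 genes and input control 5 the lowest of 3 in 18 of 46. Without IP ethanol 5, 21 proteasome genes were lower in IP and 2 higher, with a median log2 fold change of -0.07. Without input ethanol 5, 15 were lower in input and 2 higher. Sums of some marker lists also differed between treatments in IP. The summed level of 7 endothelial and mural markers, led by *Acta2*, was 1534 to 1667 CPM in control IP and 960.5 to 1159 CPM in ethanol IP, with 2 of 7 lower, and *Kcnj8* averaged below 0.1 CPM. Most of this sum was *Acta2* alone, at 1520 to 1655 CPM and 948.5 to 1147 CPM. 9 oligodendrocyte lineage markers, led by *Olig1*, summed to 271.4 to 289.3 CPM in control IP and 250.4 to 271.6 CPM in ethanol IP (2 higher, 1 lower, *Sox10* and *Mog* averaging below 0.1 CPM). Most of this sum was *Olig1*, at 202.7 to 217.3 CPM and 173.7 to 191.1 CPM, while *Pdgfra* and *Cspg4* were higher in every ethanol IP library than in every control one. 9 microglial markers summed to 12.6 to 13.8 CPM and 13.1 to 16.3 CPM (1 higher, *Csf1r*), 8 neuronal markers, led by *Stmn2*, to 215.1 to 230.5 CPM and 206.6 to 224.1 CPM (1 lower, *Snap25* averaging below 0.1 CPM), and 6 fibroblast and meningeal markers, led by *Pdgfrb*, to 193.4 to 213.7 CPM and 189.7 to 217.8 CPM (0 of 6 passed in edgeR or DESeq2, 0 with an unadjusted p below 0.05, *Lum* averaging below 0.1 CPM). 10 astrocyte markers summed to 1799 to 1880 CPM in control IP and 1926 to 2000 CPM in ethanol IP (4 higher, 6 did not pass). Beside these counts, 11.9% of all genes were higher in IP and 9.48% lower. The part of the markers in the changes of proteasome genes was not tested.

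Total culture RNA was compared in the same way between ethanol and control input (3 vs. 3 libraries). Of the 49 proteasome genes 22 were lower with ethanol, 1 was higher, *Psme4*, and 26 did not pass. Over all genes 7.78% were lower and 7.21% higher. Among the genes above 1 CPM in at least 3 libraries, 13.8% were lower and 12.4% higher. Of the 46 proteasome genes among them, 23 were lower and 1 higher. The median log2 fold change of the 49 genes was -0.07, beside -0.00 over all genes, and 41 of the 49 were negative. In 24 genes every control library lay on 1 side of every ethanol library (27.1% over all genes). Summed over the 49 genes, the control libraries 4, 5 and 6 had 4644, 4637 and 4651 CPM and the ethanol libraries 4509, 4388 and 4470 CPM.

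In the core 9 of 14 genes were lower in input, 3 of 7 in the α ring and 6 of 7 in the β ring. *Psma4*, *Psmb2*, *Psmb3* and *Psmb4* lost their call without input ethanol 5. They also lost it with trends in base composition and length removed, where *Psma3* gained one. *Psmb5* had 43.3, 44.8 and 44.3 CPM in control input 4 to 6 and 37.5, 42.1 and 38.6 CPM in ethanol input 4 to 6. The groups did not overlap, and the gene fell by 0.17 ± 0.04 log2 units (adjusted p = 7e-05). *Psmb6* had 128.3, 130.7 and 130.0 CPM in control input and 119.5, 116.3 and 118.3 CPM in ethanol input (-0.14 ± 0.02, adjusted p = 8.4e-07). *Psmb7* had 48.7, 49.5 and 48.1 CPM in control input and 44.8, 47.0 and 44.8 CPM in ethanol input (-0.10 ± 0.03, adjusted p = 0.021). All 3 catalytic genes were thus lower in every ethanol library than in every control library. The exception in the β ring was *Psmb1*, a structural subunit (-0.01 ± 0.02, adjusted p = 0.79).

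*Psmb10* was the only immunoproteasome gene called in input. It had 88.7, 87.3 and 87.0 CPM in control input and 80.4, 79.6 and 81.7 CPM in ethanol input, without overlap (-0.13 ± 0.03, adjusted p = 9.7e-05). *Psmb8* had 48.7, 47.5 and 47.3 CPM in control input and 46.4, 46.6 and 48.3 CPM in ethanol input (-0.03 ± 0.03, adjusted p = 0.69). *Psmb9* had 25.6, 26.1 and 25.7 CPM in control input and 26.1, 25.4 and 29.2 CPM in ethanol input (0.05 ± 0.04, adjusted p = 0.51). For these genes the groups overlapped.

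In the 19S particle 9 of 17 genes were lower in input: 3 of 6 ATPases, 1 of 3 other base subunits and 5 of 8 lid subunits. *Psmc4* had 110.6, 109.9 and 109.1 CPM in control input and 100.7, 100.5 and 96.2 CPM in ethanol input (-0.15 ± 0.03, adjusted p = 2.3e-07), with clear separation. *Psmd2* had 284.3, 286.3 and 286.5 CPM in control input and 268.3, 277.3 and 276.7 CPM in ethanol input (-0.06 ± 0.02, adjusted p = 0.038). *Psmd14* gave -0.07 ± 0.03 (adjusted p = 0.095) and *Psmd4* -0.03 ± 0.03 (adjusted p = 0.62), and neither passed. *Psme4* had 66.5, 67.2 and 65.5 CPM in control input and 75.3, 71.6 and 72.9 CPM in ethanol input. All ethanol libraries were higher, and *Psme4* rose by 0.14 ± 0.03 log2 units (adjusted p = 4.5e-05). The caps *Psme1*, *Psme2* and *Psme3* each fell by 0.10 ± 0.02 or 0.03 (adjusted p = 0.00036, 0.00077 and 0.0018), without overlap of the groups. *Psmf1* gave 0.02 ± 0.03 (adjusted p = 0.78). Of the assembly factors 0 of 7 passed in edgeR or DESeq2, and 0 had an unadjusted p below 0.05, with log2 fold changes between -0.07 and 0.07.

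Beyond 1.2-fold, 0 of the 49 passed in input (edgeR, 0.225% over all genes), and 0 had an unadjusted p below 0.05 in that test. With 3 libraries a group, 11 of the 22 decreases were lost without a single library, named by treatment and number. These were *Psma4* (without control 4 or 5 or ethanol 5, adjusted p up to 0.19), *Psmb2* (ethanol 5, 0.14), *Psmb3* (control 4 or 6 or ethanol 5, up to 0.099), *Psmb4* (control 5 or 6 or ethanol 4 or 5, up to 0.29), *Psmb7* (control 5 or ethanol 4 or 6, up to 0.12) and *Psmc3* (control 5 or 6 or ethanol 5, up to 0.14). The others were *Psmc5* (control 6, 0.073), *Psmd12* (control 6 or ethanol 6, up to 0.19), *Psmd2* (control 4, 5 or 6 or ethanol 4, up to 0.25), *Psmd3* (control 6 or ethanol 5, up to 0.11) and *Psme2* (ethanol 5, 0.13). *Psmc6* became higher without control 4 (0.038) or ethanol 5 (0.025), and *Psmd14* lower without ethanol 4 (0.043). In DESeq2 *Psmb4* gave 0.053, and with total counts *Psmb4* gave 0.083 and *Psmd2* 0.088. With trends in base composition and length removed 14 genes were lower, and *Psma4*, *Psmb2*, *Psmb3*, *Psmb4*, *Psmc3*, *Psmc5*, *Psmd12*, *Psmd2* and *Psme2* lost their call, with log2 fold changes from -0.07 (*Psmd12*, -0.09 before) to -0.03 (*Psmb4*, -0.07 before), while *Psma3* gained one (-0.08, adjusted p = 0.0076). The endothelial and mural markers summed to 1164 to 1232 CPM in control input and 766.1 to 833.9 CPM in ethanol input, with 2 of 7 lower. Most of this sum was *Acta2*, at 1151 to 1220 CPM and 753.9 to 822.7 CPM. The microglial markers summed to 71.9 to 74.9 CPM and 73.9 to 86.0 CPM (2 of 9 higher), astrocyte markers to 1167 to 1212 CPM and 1222 to 1247 CPM (4 of 10 higher, 3 lower), oligodendrocyte lineage markers to 165.1 to 184.4 CPM and 160.9 to 166.8 CPM (3 of 9 higher, 1 lower), and neuronal markers to 168.4 to 172.3 CPM and 161.0 to 172.0 CPM (2 of 8 higher, 1 lower). Beside these counts, 7.21% of all genes were higher in input and 7.78% lower. The part of the markers was not tested.

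The difference between the ethanol effect in IP and that in input was tested by an interaction term fitted to all 18 libraries. It passed for 0 of the 49 genes in edgeR, as for 0% of all genes, and 2 of the 49 had an unadjusted p below 0.05. DESeq2 called 0 of the 49 and 2 genes in all. For *Psme4* the difference was 0.08 ± 0.04 log2 units (adjusted p = 0.85), for *Psmb10* -0.09 ± 0.06 (adjusted p = 0.89) and for *Psmd2* 0.04 ± 0.03 (adjusted p = 0.90). Genes called in 1 fraction alone, such as *Psmd14* or *Psmf1*, were therefore not shown to respond differently. Within the dishes that gave both fractions, with dish as a block, 0 of the 49 passed and 102 genes did in all.

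RNA on tagged ribosomes and total RNA were compared over the 18 libraries, with treatment as a term (12 IP vs. 6 input). Of the 49 genes 29 were higher in IP and 4 were lower, *Psmb1*, *Psmd8*, *Psme4* and *Psmg4*, and 16 did not pass. Over all genes 25.2% were higher and 25.8% lower. Among the genes above 1 CPM in at least 3 libraries, 38.0% were higher and 39.2% lower. Of the 46 proteasome genes among them, 26 were higher and 6 lower. With scaling by total counts instead of TMM, 26 of the 49 were higher and 8 lower. The median log2 fold change was 0.12, beside -0.03 over all genes, and IP and input libraries did not overlap in 19 of the 49 (25% over all genes). With total counts the median was 0.07, beside -0.08 over all genes. Beyond 1.2-fold, 7 genes were higher and 2 lower, and over all genes 20.2% passed in either direction.

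In the 19S particle 14 of 17 genes were higher in IP (25.2% over all genes), and in 13 of 17 the fractions did not overlap (25% over all genes). *Psmc3*, an ATPase of the base, had 268.1, 277.9 and 283.3 CPM as lowest, median and highest level in control IP and 206.0, 215.6 and 213.7 CPM in control input 4 to 6. The fractions did not overlap, and the log2 fold change was 0.38 ± 0.02 (adjusted p = 1.8e-28). *Psmd4* gave 0.37 ± 0.02 (adjusted p = 1.7e-26), *Psmd2* 0.20 ± 0.02 (adjusted p = 3.4e-16), and *Psmd14* did not pass (0.02 ± 0.02, adjusted p = 0.51). *Psmd8* was lower in IP by 0.10 ± 0.02 (adjusted p = 1.9e-05), unlike its partners in the lid, of which 6 were higher.

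In the 20S core 9 of 14 genes were higher in IP, 3 of 7 in the α ring and 6 of 7 in the β ring. *Psmb5* gave 0.30 ± 0.03 (adjusted p = 8.7e-16), *Psmb7* 0.26 ± 0.02 (adjusted p = 3.1e-15) and *Psmb6* 0.19 ± 0.02 (adjusted p = 1.9e-12). *Psmb1* was the exception at -0.09 ± 0.02 (adjusted p = 0.00018), and in the control dishes alone it did not pass (adjusted p = 0.053). *Psma3* gave 0.00 ± 0.02 (adjusted p = 0.98). With total counts it was called lower (-0.05, adjusted p = 0.027), and that scaling moved the median over all genes by -0.05. Which scaling is right for *Psma3* was not tested. *Psma6* and the ATPase *Psmc6*, not called in the reported fit, were called lower with total counts too (adjusted p = 0.012 and 0.0073). With only genes above 1 CPM in at least 3 libraries, *Psmc6* was called lower as well (-0.05, adjusted p = 0.0499). *Psma1* did not pass with total counts (adjusted p = 0.51) or in ethanol dishes alone (adjusted p = 0.57).

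All 3 immunoproteasome genes were higher in IP (25.2% over all genes) without overlap of the fractions (25% over all genes). *Psmb10* was at 110.3 to 130.8 CPM in control IP and 87.0 to 88.7 CPM in control input. It showed the largest increase of the 49 genes, 0.44 ± 0.03 (adjusted p = 7.1e-12), followed by *Psmb8* at 0.38 ± 0.03 (adjusted p = 1.6e-13). *Psmb9* gave 0.36 ± 0.03 (adjusted p = 2.8e-16). Beside them the summed microglial markers were 12.6 to 13.8 CPM in control IP and 71.9 to 74.9 CPM in control input, that is, lower in IP, and fibroblast and meningeal markers were 193.4 to 213.7 CPM and 352.3 to 358.7 CPM. Other lists summed higher in control IP than in control input: 8 neuronal markers to 215.1 to 230.5 CPM and 168.4 to 172.3 CPM (5 higher, 1 lower), 9 of the oligodendrocyte lineage to 271.4 to 289.3 CPM and 165.1 to 184.4 CPM (4 higher, 4 lower), and 7 endothelial and mural ones, led by *Acta2*, to 1534 to 1667 CPM and 1164 to 1232 CPM (3 higher, 2 lower). Summed astrocyte markers were 1799 to 1880 CPM in control IP and 1167 to 1212 CPM in control input. Beside the counts of called markers, 25.2% of all genes were higher in IP and 25.8% lower. The part of the markers in the fraction differences was not tested.

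Among the activators, *Psme4* was lower in IP at 48.1 to 51.7 CPM in control IP and 65.5 to 67.2 CPM in control input (-0.37 ± 0.02, adjusted p = 3.3e-24). In both treatments its fractions were apart. *Psme1* was higher (0.15 ± 0.03, adjusted p = 0.00019), while *Psme2* (0.06 ± 0.03, adjusted p = 0.17) and *Psme3* (0.03 ± 0.02, adjusted p = 0.15) did not pass. *Psmf1* passed narrowly (0.05 ± 0.02, adjusted p = 0.048). Of the assembly factors *Psmg4* was lower, from 13.3, 14.4 and 14.2 CPM in control input to a lowest, median and highest level of 10.1, 10.8 and 11.4 CPM in control IP (-0.45 ± 0.04, adjusted p = 1.6e-15), the largest decrease among the called genes. *Psmg3* was higher (0.14 ± 0.06, adjusted p = 0.030), and *Psmg1* (0.07 ± 0.03, adjusted p = 0.069), *Psmg2* (0.06 ± 0.03, adjusted p = 0.070), *Psmd5* (-0.04 ± 0.02, adjusted p = 0.15, and 0.00033 as lower with total counts), *Psmd9* (0.05 ± 0.03, adjusted p = 0.070) and *Psmd10* (0.01 ± 0.03, adjusted p = 0.70) did not pass. With only genes above 1 CPM in at least 3 libraries, *Psmd5* was called lower too (-0.07, adjusted p = 0.0022).

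Calls near the threshold depended on single libraries. *Psmf1* lost its call without any of 13 of the 18 libraries: IP control 2, 3, 4 or 6, IP ethanol 1, 2, 3 or 6, input control 5 or 6, or input ethanol 4, 5 or 6 (adjusted p up to 0.21). It also lost it with total counts (-0.00, adjusted p = 0.95), in DESeq2 (0.054), in control dishes alone (0.94) and with dish as a block (adjusted p = 0.36). *Psmg3* lost its call without IP control 3, IP ethanol 2 or 3, input control 4, 5 or 6 or input ethanol 5 (up to 0.071), with total counts (adjusted p = 0.19) and with dish as a block (adjusted p = 0.32). The same 12 libraries without the block gave adjusted p of 0.35 for *Psmf1* and 0.30 for *Psmg3*, so these losses are not particular to the block. *Psmd9* joined without IP control 6 or IP ethanol 1 or 5 (from 0.037), *Psmg1* without IP control 6 or IP ethanol 3 (from 0.038), and *Psmg2* without input control 4 (0.029).

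**Figure D3:**
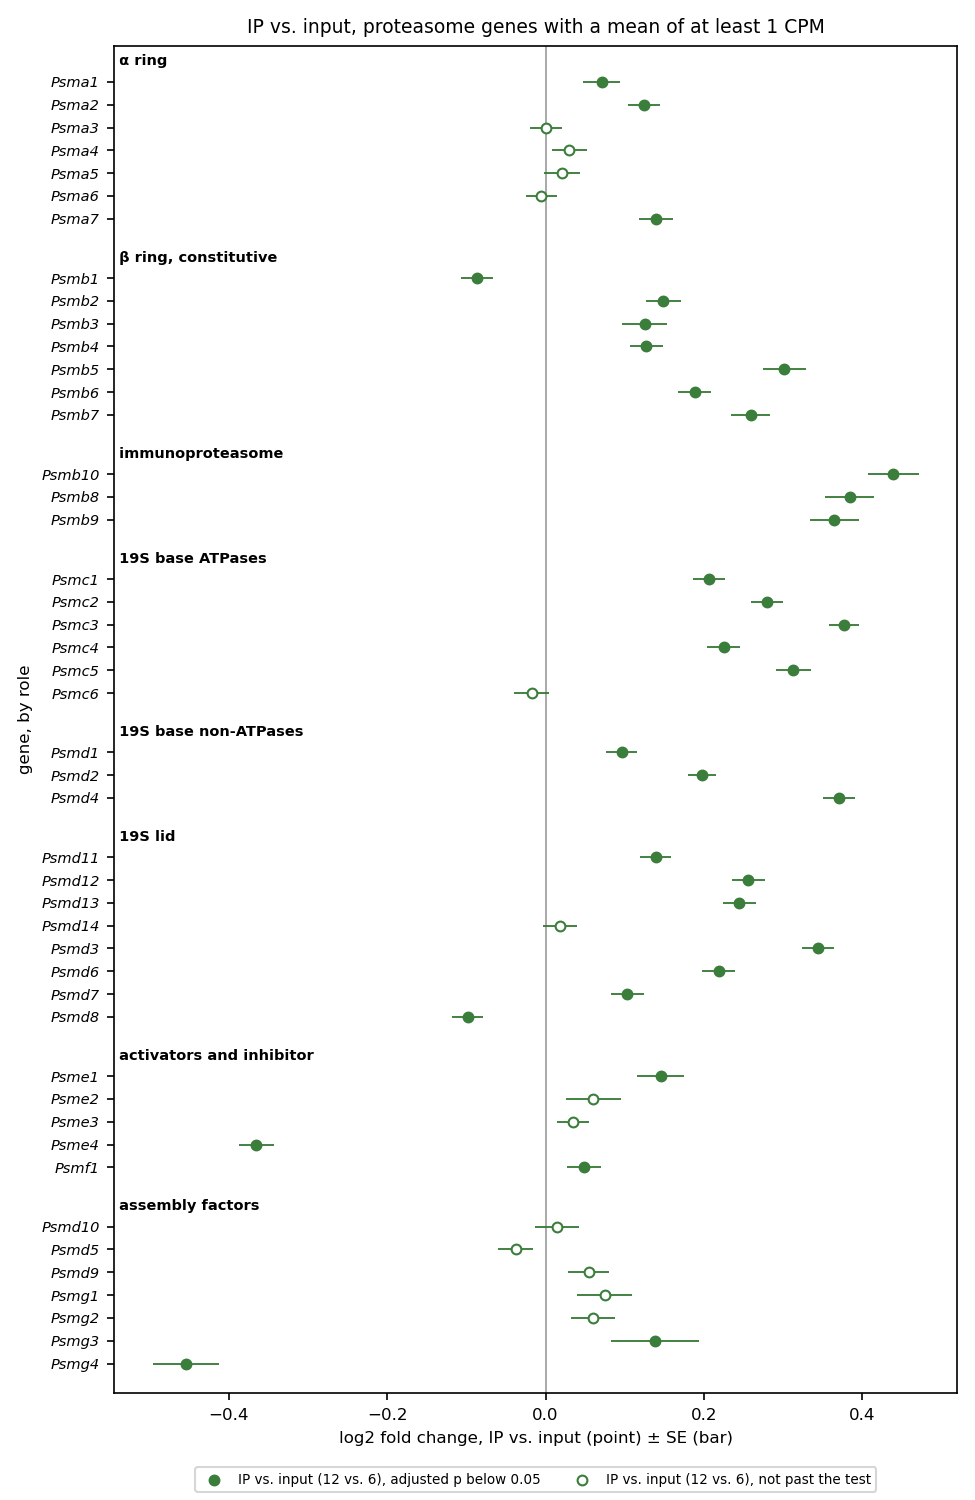
Log2 fold change of IP vs. input (x axis, points, bars for the SE) for the 46 proteasome genes averaging 1 CPM or more, by role, over 12 IP and 6 input libraries. Filled points passed the test, 29 to the right of 0 and 4 to the left, with *Psmb10* at 0.44 and *Psmg4* at -0.45.

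Proteasome genes without a *Psm* symbol went with ethanol in both directions. Of 12 measured, 3 were lower and 2 higher in IP (over all genes 9.48% and 11.9%), and 2 were lower and 2 higher in input (7.78% and 7.21%). *Pomp*, the maturation factor of the core, fell by 0.14 ± 0.03 log2 units in IP (adjusted p = 2.9e-05) and by 0.10 ± 0.02 in input (adjusted p = 0.00077). *AI314180*, which encodes the proteasome adaptor ECM29, rose by 0.15 ± 0.03 in IP (adjusted p = 1.1e-05), and in input the largest increase was that of *Zfand5*, a proteasome activator (0.12 ± 0.03, adjusted p = 0.00037). *Adrm1*, a ubiquitin receptor, passed in input (-0.09 ± 0.03, adjusted p = 0.0064) and not in IP (-0.07 ± 0.03, adjusted p = 0.077, and 0.048 in DESeq2), and the deubiquitinases *Usp14* and *Uchl5* did not pass in IP (adjusted p = 0.088, with 0.029 in DESeq2, and 0.45) or input (0.23 and 0.21). With trends in base composition and length removed *Usp14* was called lower in both (adjusted p = 0.0050 in IP and 0.016 in input) and *Adrm1* in IP too (-0.11, adjusted p = 0.00088). In IP vs. input 7 were higher, led by *Fbxo7* (0.24 ± 0.03, adjusted p = 6.1e-12), and 2 lower, led by *Sem1*, a lid subunit (-0.19 ± 0.02, adjusted p = 1.1e-09), where over all genes 25.2% were higher and 25.8% lower. Without input ethanol 5 *Pomp* gave an adjusted p of 0.080 in input, without input control 6 *Adrm1* gave 0.0997, and without input control 4 *Zfand5* gave 0.055. The input increase of *AI314180* was lost without input control 5 or input ethanol 5 (up to 0.062). In IP *Zfand5* lost its call as higher without IP control 1, 4 or 6 or IP ethanol 2 or 5 (up to 0.094). With trends in base composition and length removed *Zfand5* lost it too (0.23). *Paaf1* was not analysed here.

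Genes that deliver substrates and control proteasome genes were mixed. Of 12 ubiquitin shuttle and extraction factors 3 were lower in IP (9.48% over all genes) and 4 in input (7.78%). The largest decreases were *Ufd1* in IP (-0.10 ± 0.03, adjusted p = 0.0047) and *Nsfl1c* in input (-0.12 ± 0.03, adjusted p = 0.00015). *Vcp*, the ATPase that extracts proteins from membranes and complexes, gave -0.06 ± 0.02 in IP (adjusted p = 0.041) and 0.54 ± 0.02 in IP vs. input (adjusted p = 2e-39). Its ethanol call in IP was lost without IP control 2 or 3 or IP ethanol 1 or 4 (adjusted p up to 0.14). In input *Vcp* lost its call without input control 4 or 5 or input ethanol 4 (up to 0.20) and with total counts (0.062). The IP call of *Nsfl1c* was lost without IP control 1, 2 or 4 or IP ethanol 4, 5 or 6 (up to 0.089). With trends in base composition and length removed it was lost too (0.22). Of 9 genes that control proteasome genes 1 was higher and 2 were lower in either fraction (over all genes 11.9% and 9.48% in IP, 7.21% and 7.78% in input). The 1 in IP was *Mafg* (0.07 ± 0.03, adjusted p = 0.047), which lost its call without any of 10 of the 12 libraries, all but IP control 5 and IP ethanol 2 (adjusted p up to 0.20), and with total counts (0.062). *Nfe2l1*, the transcription factor known to raise proteasome genes when the protease is inhibited, did not pass in IP (0.05 ± 0.02, adjusted p = 0.081, and 0.034 in DESeq2) or input (0.02 ± 0.02, adjusted p = 0.64) and was higher in IP than in input (0.56 ± 0.02, adjusted p = 2.3e-41). *Nfe2l2* rose in input by 0.07 ± 0.02 (adjusted p = 0.024), a call lost without input control 4 or 6 or input ethanol 4 or 6 (up to 0.14). *Maff*, a small Maf partner of these factors, fell by 0.34 ± 0.03 in IP (adjusted p = 1.5e-16) and by 0.34 ± 0.03 in input (adjusted p = 2.3e-38).

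Of the genes of ubiquitin and its activating enzymes, *Ubb* and *Uba1* did not pass with ethanol in IP (adjusted p = 0.96 and 0.46) or input (0.62 and 0.26). With trends in base composition and length removed *Uba1* was called lower in IP (adjusted p = 0.021). In IP vs. input *Ubb* (0.44 ± 0.02, adjusted p = 1.4e-31) and *Uba1* (0.40 ± 0.02, adjusted p = 6.1e-31) were higher, and *Rps27a*, a ubiquitin fusion gene, was lower (-0.84 ± 0.02, adjusted p = 2.9e-47). Genes of antigen processing and the interferon response work downstream of the immunoproteasome or induce it. *H2-K1*, a class I heavy chain, rose by 0.21 ± 0.04 in IP (adjusted p = 0.00024) and by 0.20 ± 0.02 in input (adjusted p = 3.7e-17). *Tap1*, the peptide transporter beside *Psmb9*, rose by 0.17 ± 0.03 in IP (adjusted p = 1.3e-06) and by 0.12 ± 0.02 in input (adjusted p = 3e-05). *B2m* rose in IP by 0.09 ± 0.03 (adjusted p = 0.018) and in input by 0.10 ± 0.02 (adjusted p = 3.9e-05). Its IP call was lost without IP control 4 or 6 or IP ethanol 1, 2, 3 or 6 (up to 0.11), and with trends in base composition and length removed its IP value was 0.18 (adjusted p = 0.0024). *Irf1*, a transcription factor of the interferon response, did not pass in IP (adjusted p = 0.77). In input it passed in edgeR (0.08 ± 0.03, adjusted p = 0.029) and not in DESeq2 (0.054), and lost the call without input control 5 or 6 or input ethanol 6 (up to 0.27). *Stat2* was lower in input (-0.10 ± 0.03, adjusted p = 0.0048) and not in DESeq2 (0.091), and lost the call without input control 4 or 6 or input ethanol 5 (up to 0.22).

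Proteasome genes lie on 16 chromosomes, and 3 pairs lie within 100 kb of each other. These were *Psmb8* and *Psmb9*, *Psme1* and *Psme2*, and *Psmb11* and *Psmb5* at a gap of 3.411 kb. RefSeq promoter sequences (GRCm38.p6, 250 bases before to 50 after the start) were at hand for 41 of the 49 genes, with more than 1 entry for *Psma6*, *Psmc2* and *Psme2*. *Psma8*, *Psmb1*, *Psmb2*, *Psmb7*, *Psmc3*, *Psmd3*, *Psmd7* and *Psmg2* had no entry. The promoters of the genes were rich in G and C, with a median of 57.3% beside 52.7% over all promoters and a median of 19 CpG beside 7. The letters of a GC box, GGGCGG, were found on either strand in 23 of 41 (56.1%, beside 35.7% of 32851 promoters). A CCAAT box, CCAAT, was found in 14 of 41 (34.1%, beside 37.4%). The core of the antioxidant response element, TGACNNNGC, to which *Nfe2l1* and *Nfe2l2* products bind with small Maf proteins, was found in 6 of 41 (14.6%, beside 12.4%): *Psmb5*, *Psmb6*, *Psmc6*, *Psmd12*, *Psmd9* and *Psme4*. Matches of different motifs were counted even where they overlap. Of the 22 genes with a promoter entry that fell in IP, 11 held a GC box, 10 a CCAAT box and 2 the antioxidant core. Of the 19 others with an entry, 12 held a GC box, 4 a CCAAT box and 4 the antioxidant core.

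The promoters of *Psmb5* and *Psmb6*, the constitutive catalytic genes with the largest decreases in IP, and of *Psme4*, the gene with the largest increase, are shown because all hold the antioxidant core close to the start while the genes moved in opposite directions. Capitals mark the core, 5′ to 3′ on the strand of the gene. *Psmb5* lies on the minus strand with its window at chr14:54617946-54618245 and the match 47 bases before the start. *Psmb6* lies on the plus strand with its window at chr11:70525107-70525406 and the match 9 bases before the start. *Psme4* lies on the plus strand with its window at chr11:30771525-30771824, and its match is on the opposite strand, 7 bases before the start. *Psmd9*, which passed in neither fraction with ethanol, also holds the core near the start, 31 bases before it. A match describes letters and is not a measured binding site.
Psmb5: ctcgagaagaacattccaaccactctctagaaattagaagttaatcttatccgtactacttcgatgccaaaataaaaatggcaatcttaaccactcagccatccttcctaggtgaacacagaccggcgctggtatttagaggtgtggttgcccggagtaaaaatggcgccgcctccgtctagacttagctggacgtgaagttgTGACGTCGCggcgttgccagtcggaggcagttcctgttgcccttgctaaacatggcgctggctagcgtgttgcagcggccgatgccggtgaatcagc
Psmb6: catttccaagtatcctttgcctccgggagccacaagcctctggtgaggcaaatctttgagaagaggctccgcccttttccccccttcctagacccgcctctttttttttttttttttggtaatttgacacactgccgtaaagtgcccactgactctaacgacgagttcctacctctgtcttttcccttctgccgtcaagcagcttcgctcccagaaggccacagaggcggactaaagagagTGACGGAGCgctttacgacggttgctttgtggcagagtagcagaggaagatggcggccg
Psme4: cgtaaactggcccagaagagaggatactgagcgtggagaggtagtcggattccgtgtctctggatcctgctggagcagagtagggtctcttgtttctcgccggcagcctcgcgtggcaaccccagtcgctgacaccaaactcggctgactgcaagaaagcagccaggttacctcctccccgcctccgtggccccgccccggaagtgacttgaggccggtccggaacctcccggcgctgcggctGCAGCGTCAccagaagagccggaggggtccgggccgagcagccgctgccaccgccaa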

How the data were processed

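The authors deposited raw counts of read pairs per gene for each library and in 1 table. Per the submitters' notes, reads were trimmed with Trimmomatic, aligned with STAR to GRCm38 (mm10) and handled with SAMtools. The counts disregard strand, and multimapped pairs, on average 3.60%, were left out. Their share was 4.56 to 4.77% in input, 3.09 to 3.19% in control IP and 2.95 to 3.02% in ethanol IP. Pairs ambiguous between genes, on average 5.50%, were left out too. The effect of these losses on the comparisons was not tested. The 24495 genes whose counts summed to 10 or more were scaled by TMM and tested with edgeR 4.0.16 in R 4.3.3, with SE taken as the log2 fold change over the root of F. DESeq2 1.42.0 was the other tool, and the procedure was tested on simulated data. Exonic and coding lengths came from GENCODE annotation, promoters from RefSeq. Genes named with values were the catalytic, immunoproteasome, tissue-restricted, activator, inhibitor and assembly genes, the deubiquitinase and ubiquitin receptors, the 3 largest called changes in each direction per comparison, and a few from each other list. Some genes of these lists are not reported here. *Psma2*, *Psma6*, *Psmd3* and other genes named for a single-library or setting dependence were named after their values were seen. Members and lists were chosen with earlier results of these data known. Input and IP libraries of 1 dish are a true pair, and their deviations from the group means correlated at 0.034 to 0.20 over 11378 genes. Between treatments, the labels link dishes only by a shared number (IP -0.14 to 0.37, highest for number 5, and input 0.033 to 0.072). No block was used for ethanol in the reported fit. Whether dishes of 1 number shared handling was not tested.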

Additional observations from a re-analysis of the deposited data

Results flagged for a closer look

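Groups of 6 libraries were searched for a library whose gap to its nearest neighbour exceeded Dixon's 95% critical share of the group's range. Of 94 groups looked at, 4 held one, where chance gives about 1 in 20. All were ethanol IP libraries. *Psma7* stood at 104.0 CPM in IP ethanol 5, beside 112.1 to 113.8 CPM in the other 5. *Psme1* stood at 155.99 CPM in IP ethanol 5, beside 174.1 to 183.6 CPM. *Psmd10* stood at 33.2 CPM in IP ethanol 5, beside 37.4 to 39.3 CPM. *Psme3* stood at 118.8 CPM in IP ethanol 3, beside 109.1 to 112.6 CPM.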

How the results depend on the processing

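Counts of called proteasome genes (49 tested) kept within 1.5 times the reported count under other scalings, DESeq2, other filters on low counts and strand-specific counts, with the exceptions given here. In IP, 26 were lower and 2 higher: IP replicates 1 to 3 alone gave 13 lower, replicates 4 to 6 alone gave 1 higher, and the test against a fold of 1.2 gave 0 lower and 0 higher. In input, 22 were lower and 1 higher: removing trends in base composition and length gave 14 lower, and the fold test gave 0 lower and 0 higher. In IP vs. input, 29 were higher and 4 lower: total counts gave 8 lower, and the fold test gave 7 higher and 2 lower. The fold test asks for more, and total counts moved the median log2 fold change over all genes in IP vs. input by -0.05. The cause of the other shifts was not tested. Leaving out 1 library each gave 21 to 30 lower and 2 to 2 higher in IP, 15 to 20 lower and 1 to 2 higher in input, 27 to 30 higher and 4 to 4 lower in IP vs. input, and 0 to 0 for the interaction.

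With control and ethanol dishes of 1 number taken as a block, 26 were lower and 2 higher in IP, where *Psmb11* gave an adjusted p of 0.069, and 23 lower and 1 higher in input. With block and trends removed together, 21 were lower in IP and 16 in input. With dish as a block, 27 were higher and 4 lower in IP vs. input, and the same 12 libraries without the block, added after seeing the data, gave 27 and 4 too. Among values past the threshold in the reported or the other fit, 3 reversed direction. With total counts these were *Psma3* (-0.050, adjusted p = 0.027) and *Psmf1* (-0.0021, adjusted p = 0.95) in IP vs. input, where that scaling moved the median over all genes by -0.05. The other was *B2m* in the interaction with dish block and trends removed (0.077, adjusted p = 0.036), and the cause of its reversal was not tested. Values past it in neither fit could lie on either side of 0. *Psma8* and *Psmb11* are too shallow for more than a count, and how depth limits the other genes was not tested.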
